A study of Mus musculus with 2 samples.

Results

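The mouse genes Gpx1, Gpx3, Gpx4, Gpx7, Gpx8, Gstp1, Gsto1 and Gstm1 encode glutathione peroxidases and glutathione transferases, and they were followed by name in both count tables as 8 of 32285 genes. They were chosen by their alpha against beta levels, their levels along the insulin content of beta cells and the difference between the libraries in each hormone group, so these values are given as a description. The data are 3′ single-cell RNA counts of pancreatic islets from 12-week-old female C57BL/6 mice, in 1 library labelled Spop fl/fl (the control, with floxed Spop alleles) and 1 library labelled SpopβKO (deletion of Spop in beta cells, on the same background). Islets of both genotypes were hand-picked, kept in glucose-containing RPMI medium for some days, dispersed with trypsin and cleared of debris and dead cells. How many mice were pooled, which Cre line drove the deletion and which exons it removed are not given in the sources used here, and SPOP is a substrate adaptor of a cullin ubiquitin ligase. With 1 library per genotype there is no replicate, so no difference was tested, and every interval is a 95% interval for counting error only.

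Glutathione is the main soluble thiol of the cell. Glutathione peroxidases use it to reduce hydrogen peroxide and lipid hydroperoxides, several of them through a selenocysteine. Glutathione transferases couple glutathione to electrophiles or use it in thiol exchange. Rodent beta cells are known for low levels of several peroxide-removing enzymes. GPX1 is the cytosolic and mitochondrial peroxidase, GPX3 is secreted, GPX4 reduces phospholipid hydroperoxides in membranes and restrains ferroptosis, and GPX7 and GPX8 lack selenocysteine and lie in the endoplasmic reticulum. GSTP1 and GSTM1 are transferases of the pi and mu classes, and GSTO1, of the omega class, has thioltransferase and dehydroascorbate reductase activity.

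In beta cells the knockout-labelled library had 4.14 times the Gpx3 level and 1.92 times the Gpx1 level of the control, and the Gsto1 level was 2.22-fold lower. Gpx4, Gstp1 and Gstm1 differed by less than 1.5-fold there. In alpha cells the Gpx3 level was 1067 against 1063 and the member that differed by 1.5-fold or more was Gstp1, at 1.86 times the control level. Gpx7 and Gpx8 were nearly absent from endocrine cells.

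On mm10, Gpx1 lies on chromosome 9 from 108338903 to 108340343 (plus strand), Gpx3 on chromosome 11 from 54902453 to 54910377 (plus strand) and Gpx4 on chromosome 10 from 80047166 to 80056439 (plus strand). Gpx7 lies on chromosome 4 from 108400390 to 108406961 (minus strand) and Gpx8 on chromosome 13 from 113042753 to 113046410 (minus strand). Gstp1 and Gsto1 share chromosome 19, at 4035407 to 4037985 (minus strand) and 47854970 to 47864790 (plus strand), and Gstm1 lies on chromosome 3 from 108012255 to 108017973 (minus strand). All 8 are annotated as protein coding. Gpx8 overlaps Cdc20b and Gsto1 overlaps Cfap43 on the opposite strand, in both cases without a shared exon stretch.

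The 4 members that differed by 1.5-fold or more between the libraries in beta or alpha cells are shown with sequence before their RefSeq start. The 250 bases before each RefSeq start on GRCm38.p6 were taken, in the direction of the gene. RefSeq and GENCODE, which gave the positions above, place these starts differently, so each sequence is printed 5′ to 3′ only up to the first exon of a coding GENCODE transcript that the window meets. That leaves out the last 26 bases for Gpx1, 82 for Gpx3, 3 for Gsto1 and 73 for Gstp1. The printed Gpx3 stretch still lies wholly within the gene span given above. The printed Gpx1 stretch begins before its span and runs into it, and those of Gsto1 and Gstp1 lie outside theirs.
Gpx1, chr9:108338830-108339053, plus strand: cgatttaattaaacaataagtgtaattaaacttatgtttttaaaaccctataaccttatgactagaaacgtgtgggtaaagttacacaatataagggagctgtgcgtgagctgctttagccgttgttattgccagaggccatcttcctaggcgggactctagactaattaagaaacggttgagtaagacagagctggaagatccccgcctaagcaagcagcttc
Gpx3, chr11:54902604-54902771, plus strand: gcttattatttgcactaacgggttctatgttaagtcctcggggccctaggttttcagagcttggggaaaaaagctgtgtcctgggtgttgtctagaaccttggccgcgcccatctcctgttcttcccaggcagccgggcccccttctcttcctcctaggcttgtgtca
Gsto1, chr19:47854723-47854969, plus strand: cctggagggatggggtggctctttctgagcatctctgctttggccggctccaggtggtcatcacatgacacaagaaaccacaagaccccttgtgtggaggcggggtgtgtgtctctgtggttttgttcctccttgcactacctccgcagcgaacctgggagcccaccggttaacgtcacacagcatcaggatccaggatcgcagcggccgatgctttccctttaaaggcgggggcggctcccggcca
Gstp1, chr19:4037986-4038162, minus strand: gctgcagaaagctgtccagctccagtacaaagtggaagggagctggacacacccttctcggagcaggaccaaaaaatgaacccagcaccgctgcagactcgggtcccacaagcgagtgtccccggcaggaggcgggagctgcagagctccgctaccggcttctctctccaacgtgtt
The whole windows were searched for motifs. The Gpx3 window holds a CCAAT box (CCAAT, on the minus strand) 8 bases before the RefSeq start, in the stretch not printed. The Gstp1 window holds an AP-1 site (TGANTCA) that begins 74 bases before the RefSeq start, at the last printed base. Among 32851 upstream windows of the same length, 33.8% hold CCAAT and 6.75% hold TGANTCA. Both strands were also searched for the antioxidant response element TGACNNNGC, which NRF2 binds, for TGATGNAAT, a CHOP and ATF4 composite site, and for TGACGTGG, an XBP1 and ATF6 site. None of these letters occurs in the upstream windows of the 8 members, against 10.2%, 0.816% and 0.563% of all windows. The Gstp1 AP-1 site runs on as TGAGTCAGC, which matches TGACNNNGC except for a G in place of the C after TGA. Variant forms of these sites were not searched.

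Beta cells were taken as cells with insulin (Ins1 plus Ins2) as the top hormone, alpha cells with glucagon (Gcg) and PP cells with pancreatic polypeptide (Ppy), where that hormone made up at least 1% of UMIs and the next hormone at most 50% of it. Of 6850 control cells and 8842 cells of the knockout-labelled library, 3876 and 7052 were beta, 1745 and 1024 alpha, and 115 and 106 PP. The tables hold 82541585 and 89977773 UMIs, and median UMIs per cell were 8856 and 7723 in beta cells, 7843 and 6268 in alpha cells, and 19000 and 12100.5 in PP cells. All 8 beta markers and all 8 alpha markers were detected in their own group in both libraries. All 8 alpha markers were also detected in beta cells, and all 8 beta markers in alpha cells, so detection alone does not set these groups apart. The delta gate held only 7 and 8 cells, so delta cells are not read. Spop itself was measured at 76.0 CPM (73.2–78.8) in control beta cells and 95.1 CPM (92.6–97.7) in those of the knockout-labelled library. A 3′ tag outside the deleted exons does not check the deletion, so the second library is named by its label throughout. The libraries shared 21 barcodes, and leaving these cells out moved no ratio of the 6 measured members in beta, alpha or PP cells by more than 0.00485 on the log2 scale.

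Levels are UMIs per 1000000 (CPM) with 7 hormone genes left out of the total, on 1 scale set by TMM factors against control beta cells. Counts of members cover genes that reached 10 CPM on average over the 2 libraries. In beta, alpha and PP cells these were 6 of 8, since Gpx7 and Gpx8 stayed below it. In beta cells 2 of the 6 were at least 1.5-fold higher and 1 at least 1.5-fold lower in the knockout-labelled library, where 7% of 8852 genes were that much higher and 3.45% that much lower. The median log2 ratio was 0.12 for the 6 members and −0.05 for all genes. In alpha cells 1 of 6 was higher and 0 lower, against 0.838% and 0.759% of 8954 genes, and in PP cells 0 were higher and 1 lower, against 4.38% and 5.49% of 8903 genes. The rule that chose the members used these contrasts, so nothing is read from the counts.

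**Figure D1:**
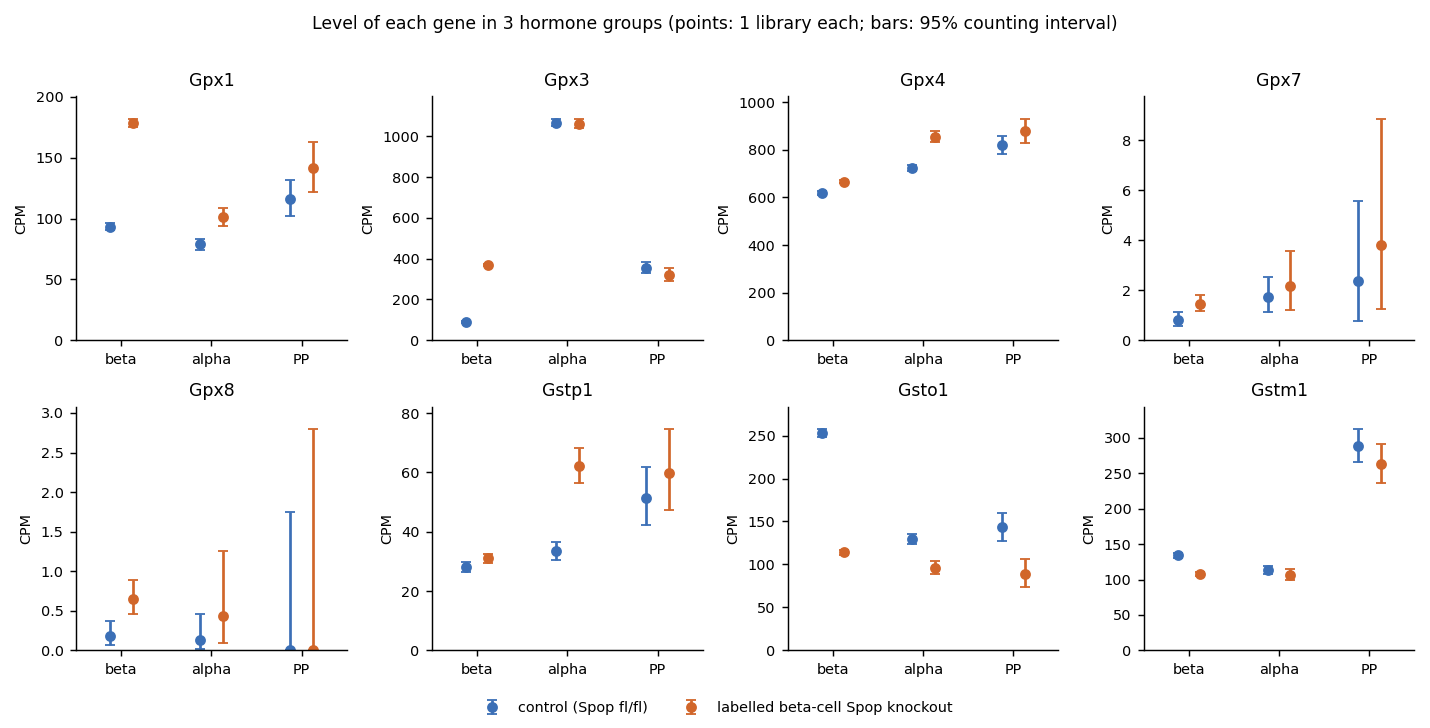
Level in CPM (linear axis from 0) of each of the 8 genes in beta, alpha and PP cells of the control library (blue) and the knockout-labelled library (orange), 1 point per library with its 95% counting interval. The libraries stand apart in beta cells for Gpx3 (89.2 and 369 CPM), Gpx1 (93.3 and 179 CPM) and Gsto1 (253 and 114 CPM), and in alpha cells for Gstp1 (33.4 and 62.3 CPM).

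Gpx1 was at 93.3 CPM (3590 UMIs) in control beta cells and at 179 CPM (10447 UMIs) in those of the knockout-labelled library, a log2 ratio of 0.94 (0.88–0.99). In alpha cells its level was 78.8 and 101 CPM, a log2 ratio of 0.36 (0.22–0.49), and in PP cells 116 and 141 CPM. The control alpha level was thus slightly below the control beta level, with a log2 ratio of alpha to beta of −0.24 (−0.34 to −0.15), and in the knockout-labelled library this ratio was −0.82 (−0.93 to −0.71). After each cell was thinned to 5000 UMIs, 31.0% of control beta cells and 50.4% of those of the knockout-labelled library held a Gpx1 UMI, against 44.2% and 56.6% before thinning. The same thinned shares in alpha cells were 24.0% and 33.7%. Thinning left out the shallower cells, 1117 and 2574 of the beta cells and 289 and 317 of the alpha cells.

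Gpx1 is also a gene of macrophages. The 14 and 26 cells with macrophage markers outside the hormone groups had it at 921 and 929 CPM, and these are too few cells to compare. All 7 macrophage markers were higher in beta cells of the knockout-labelled library, with a summed level of 12.2 CPM in the control and 111 CPM there. C1qa was the largest part of these sums, at 6.57 and 63.3 CPM. Of the beta cells, 7.77% and 22.9% held a UMI of one of these markers. RNA in the proportions of the macrophage cells would bring 0.241 and 2.87 CPM of Gpx1 with these markers, against measured levels of 93.3 and 179 CPM. In beta cells with no UMI of mesenchymal, endothelial, macrophage or acinar markers (3291 and 4484 cells), Gpx1 was at 91.1 and 164 CPM, a log2 ratio of 0.85, and the ratios of Gpx3 and Gsto1 were 2.11 and −0.99. Acinar markers summed to 4.52 and 39.2 CPM in beta cells, with 3 of 6 higher in the knockout-labelled library. Cela1 alone was at 2.08 and 37.3 CPM, and the largest of the rest, Ctrb1, at 1.38 and 0.941 CPM. Ductal markers summed to 519 and 779 CPM with 6 of 6 higher, and endothelial markers to 9.59 and 10.8 CPM with 1 of 5 higher. Most of the ductal sum was Krt18 (241 and 316 CPM), Krt7 (235 and 277 CPM) and Spp1 (42.7 and 178 CPM), while Krt19 was at 0.598 and 1.25 CPM. The part of the ductal markers in the members' levels was not tested.

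Gpx3 had the widest span between groups of the 6 measured members. In the control library its level was 89.2 CPM (3431 UMIs) in beta cells, 1067 CPM in alpha cells and 356 CPM in PP cells. In the knockout-labelled library the 3 levels were 369 CPM (21568 UMIs), 1063 CPM and 320 CPM. The log2 ratio of the libraries was 2.05 in beta cells (4.14-fold, 3.99–4.29), −0.01 (−0.04 to 0.03) in alpha cells and −0.15 (−0.33 to 0.02) in PP cells. Alpha cells thus held 12.0 times the beta level in the control and 2.88 times in the other library, log2 ratios of 3.58 and 1.53. The PP level was 3.99 times the beta level in the control, and in the knockout-labelled library it lay below the beta level with a log2 ratio of −0.20.

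Cell by cell the same order held. At 5000 UMIs per cell, 18.2% of control beta cells (16.7–19.6%) and 62.7% of beta cells of the knockout-labelled library (61.2–64.1%) held at least 1 Gpx3 UMI. Before thinning these shares were 27.3% and 61.8%. In alpha cells 96.6% and 96.3% held one, with a median of 4 UMIs per cell in both libraries. Beta cells with 4 or more Gpx3 UMIs were 1.49% in the control and 13.5% in the other library, against 59.3% and 57.4% of alpha cells.

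**Figure D2:**
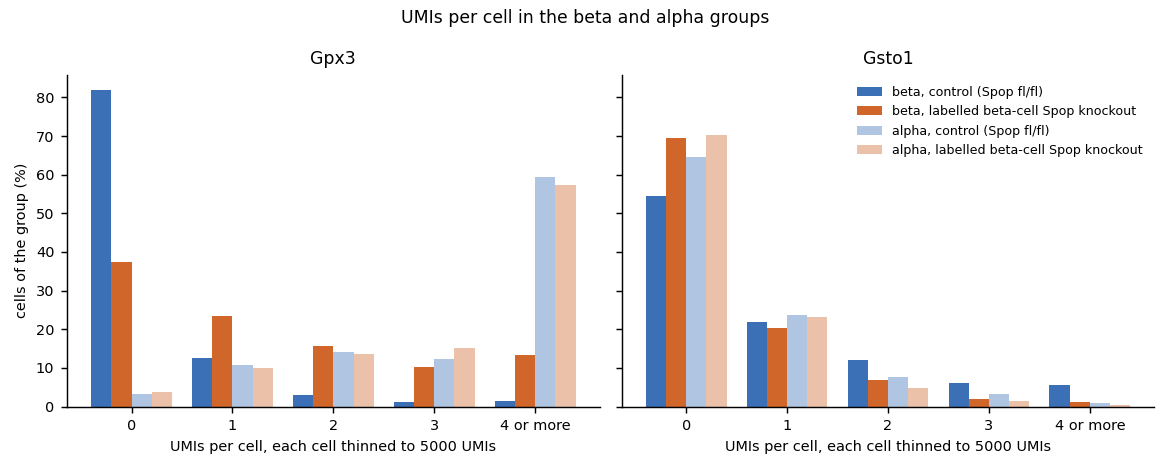
Share of cells (%, axis from 0) by the number of Gpx3 or Gsto1 UMIs in each cell after thinning to 5000 UMIs, for beta cells (solid) and alpha cells (pale) of both libraries. No Gpx3 UMI was found in 81.8% of control beta cells and 37.3% of those labelled knockout, while in alpha cells the shares were 3.37% and 3.68%; for Gsto1 the order of the beta cells is the other way, 54.5% and 69.6% without a UMI.

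Glucagon RNA was present in beta cells at 3.80% of the alpha level in the control and at 2.91% in the knockout-labelled library. RNA in the proportions of alpha cells would bring 40.6 and 31.0 CPM of Gpx3 with it. The measured 89.2 and 369 CPM lie above both. Where the next hormone was held to at most 2% of insulin (2016 and 5105 cells), Gpx3 was at 37.6 CPM in control beta cells and 355 CPM in those of the knockout-labelled library, a log2 ratio of 3.24. The control beta level is therefore the value that moved with the gate, and the level in the other library moved little. Barcodes with under 500 genes, 517 and 872 in number, held Gpx3 at 196 and 352 CPM on plain CPM outside the hormone genes. The part of RNA outside cells in the beta levels was not tested further.

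Gpx4 was at 620 and 665 CPM in beta cells, 723 and 855 CPM in alpha cells and 819 and 879 CPM in PP cells, in each case first the control. The log2 ratios of the libraries were 0.10 (0.08–0.13), 0.24 (0.20–0.29) and 0.10 (−0.01 to 0.21). Thus Gpx4 was higher in the knockout-labelled library by less than 1.5-fold in all 3 groups, and in beta cells with 3 to 15% mitochondrial UMIs the log2 ratio was −0.14. A Gpx4 UMI was found in 83.1% and 88.6% of thinned beta cells. Of the 90-base windows in the last 500 bases of its transcript, 78.1% also occur in AC122253.3 or Gpx4-ps2, so its counts are uncertain where reads were shared.

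Gpx7 and Gpx8 are described by counts. Gpx7 had 31 and 85 UMIs in all beta cells together, or 0.806 and 1.45 CPM, and 27 and 15 UMIs in alpha cells, or 1.74 and 2.16 CPM. Gpx8 had 7 and 38 UMIs in beta cells, 2 and 3 in alpha cells and 0 in PP cells of both libraries, where the upper limit that 0 counts allow (3 counts) is 1.43 and 2.28 CPM. Of the 38 Gpx8 UMIs, 30 were in cells with the least insulin.

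In the 12 and 35 cells with mesenchymal markers Gpx8 was at 190 and 140 CPM and Gpx7 at 35.3 and 38.2 CPM. In the 14 and 26 macrophage cells neither gene had a UMI, and groups this small are given as levels and not compared. All 6 mesenchymal markers were higher in beta cells of the knockout-labelled library, with a summed level of 7.33 CPM in the control and 17.9 CPM there, and RNA in the proportions of mesenchymal cells would bring 0.193 and 0.208 CPM of Gpx8 with them. The Gpx8 levels in beta cells were 0.182 and 0.650 CPM, and in beta cells without a UMI of the other cell types' markers they were 0.0352 and 0.111 CPM. No ratio is read from counts this low.

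Gstp1 was at 28.2 and 31.0 CPM in beta cells, a log2 ratio of 0.14 (0.03–0.25). In alpha cells it was at 33.4 CPM (519 UMIs) in the control and 62.3 CPM (433 UMIs) in the knockout-labelled library, a log2 ratio of 0.90 (0.71–1.08). In PP cells it was at 51.4 and 60.0 CPM, with intervals that overlap. The alpha to beta log2 ratio was 0.24 in the control and 1.01 in the knockout-labelled library. A Gstp1 UMI was found in 11.9% and 20.2% of thinned alpha cells and in 10.3% and 12.0% of thinned beta cells. By its log2 ratio in alpha cells Gstp1 ranked 19 from the top of 8954 genes. The rule that chose the members used this contrast, so nothing is read from the rank.

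Some markers of other cells were also higher in the alpha cells of the knockout-labelled library, and others were lower. Beta markers summed to 7200 and 14760 CPM there, with 8 of 8 higher, PP markers to 4723 and 6625 CPM with 4 of 4 higher, and ductal markers to 559 and 802 CPM with 5 of 6 higher. Among the ductal markers Spp1 was at 109 and 339 CPM, Krt7 at 124 and 146 CPM and Krt18 at 325 and 311 CPM. Macrophage markers summed to 23.8 and 29.9 CPM with 3 of 7 higher. Acinar markers summed to 26.2 and 12.4 CPM with 1 of 6 higher, and endothelial markers to 8.63 and 7.19 CPM with 1 of 5 higher. RNA in the proportions of beta cells would bring 0.848 and 1.80 CPM of Gstp1 with the insulin found in alpha cells, against measured levels of 33.4 and 62.3 CPM. In alpha cells with no UMI of mesenchymal, endothelial, macrophage or acinar markers the Gstp1 log2 ratio was 0.98. The part of PP and ductal RNA was not tested.

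Median mitochondrial shares were 3.27% in control alpha cells and 1.91% in those of the knockout-labelled library. Within alpha cells under 1% mitochondrial UMIs (124 and 224 cells) the Gstp1 log2 ratio was 0.52, from 1 to 3% it was 0.91 and from 3 to 15% it was 0.58, so that 2 of these 3 strata lay just under 1.5-fold. Of the windows at the end of its transcript, 68.1% also occur in Gstp-ps or Gstp2, a near copy that had 15 and 7 UMIs (0.966 and 1.01 CPM) in alpha cells and 25 and 50 UMIs in beta cells, and Gstp1 counts are uncertain for this reason.

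Gsto1 had the opposite order to Gpx3. In beta cells its level was 253 CPM (9732 UMIs) in the control and 114 CPM (6666 UMIs) in the knockout-labelled library, a log2 ratio of −1.15 (−1.19 to −1.10). In alpha cells the levels were 129 and 96.0 CPM, a log2 ratio of −0.43 (−0.56 to −0.30), and in PP cells 143 and 88.8 CPM, a log2 ratio of −0.69 (−1.01 to −0.38). The Gsto1 level was thus lower in the knockout-labelled library in all 3 groups. Its alpha to beta log2 ratio was −0.97 in the control and −0.25 in the other library. A Gsto1 UMI was found in 45.5% of thinned control beta cells and 30.4% of those labelled knockout, and in 35.4% and 29.7% of thinned alpha cells.

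The Gsto1 difference varied with the depth of the cells. In beta cells of 5000 to 10000 UMIs (1033 and 1591 cells) its level was 132 and 87.7 CPM, a log2 ratio of −0.59, and from 10000 to 20000 UMIs (1067 and 1918 cells) it was 250 and 124 CPM, a log2 ratio of −1.01. With every beta cell weighted equally it was 164 and 85.4 CPM. In alpha cells of 10000 to 20000 UMIs (409 and 156 cells) the Gsto1 log2 ratio was −0.0491, so the alpha difference was nearly absent there. Its PP difference rests on 301 and 117 UMIs.

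Gstm1 had its highest level in PP cells, at 289 CPM in the control and 263 CPM in the knockout-labelled library. In beta cells it was at 134 and 107 CPM, a log2 ratio of −0.32 (−0.37 to −0.27), and in alpha cells at 114 and 107 CPM, a log2 ratio of −0.09 (−0.22 to 0.03). The PP to beta log2 ratio was 1.11 in the control and 1.29 in the knockout-labelled library. PP cells held more UMIs than beta cells, and a Gstm1 UMI was found in 63.1% and 65.3% of PP cells after thinning, against 36.9% and 32.2% of beta cells.

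Set against beta cells of the same library, the control alpha cells had 1 of 6 measured members at least 1.5-fold higher (Gpx3) and 1 lower (Gsto1), where 9.26% of 8913 genes were higher and 12.4% lower. In the knockout-labelled library 2 were higher (Gpx3 and Gstp1) and 1 lower (Gpx1), against 7.43% and 10.8% of 9022 genes. In control PP cells 3 were higher than in beta cells (Gpx3, Gstm1 and Gstp1) and 1 lower (Gsto1), against 10.2% and 13.2% of 8874 genes. In PP cells of the knockout-labelled library 2 were higher (Gstm1 and Gstp1) and 0 lower, against 7.98% and 12.7% of 8967 genes.

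**Figure D3:**
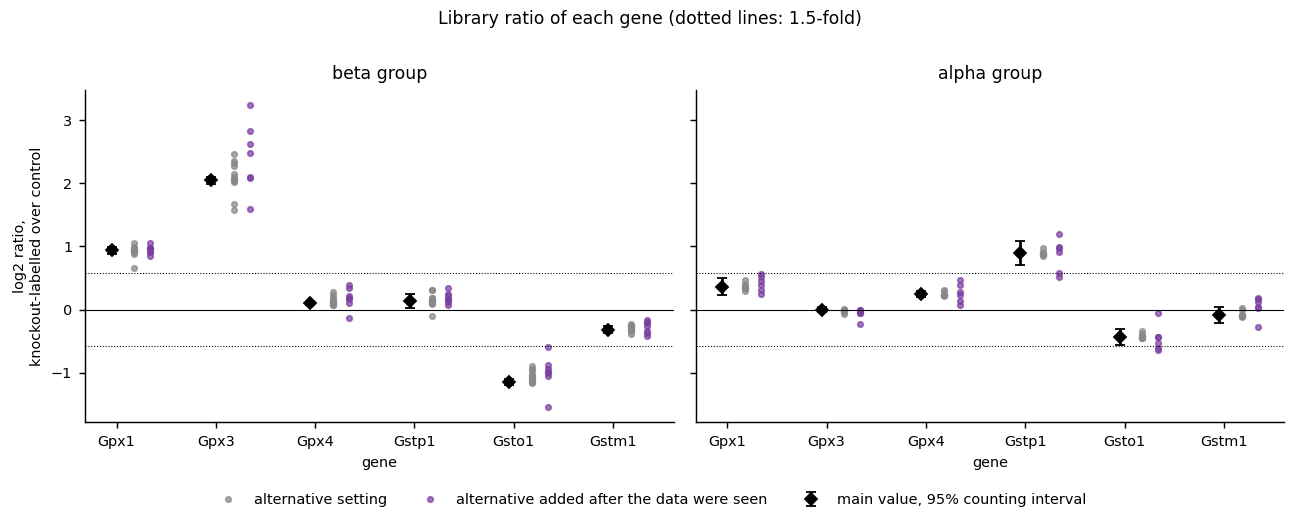
Log2 ratio of the knockout-labelled library over the control for the 6 measured genes in beta cells (left) and alpha cells (right). Diamonds are the reported values with 95% counting intervals, grey points the alternative settings, purple points the alternatives added after the data were seen, and dotted lines mark 1.5-fold. In beta cells Gpx1, Gpx3 and Gsto1 stayed past 1.5-fold in 19 of 19 alternatives, and in alpha cells Gstp1 in 12 of 14.

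Beta cells differ in insulin content, and the 4 insulin bands hold cells with 1 to under 5%, 5 to under 10%, 10 to under 20% and at least 20% of UMIs from insulin genes. They hold 1569, 699, 737 and 871 control cells and 1887, 1818, 1600 and 1747 cells of the knockout-labelled library. Gpx1 was at 82.3, 85.7, 94.3 and 125 CPM from the lowest to the highest band in the control and at 130, 158, 181 and 235 CPM in the knockout-labelled library. Each step was upward in both libraries, with log2 ratios of the highest to the lowest band of 0.60 (0.46–0.73) and 0.86 (0.78–0.94). This holds relative to genes other than the hormones: as a share of all UMIs, insulin included, the control ratio was −0.23 and that of the other library 0.14.

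Gpx3 was at 50, 102, 135 and 98.0 CPM in the control bands and at 222, 323, 404 and 504 CPM in those of the knockout-labelled library. In the control the highest insulin band thus lay below the third, while in the other library each band exceeded the one before. Gsto1 stepped down with insulin, from 320 through 256 and 204 to 109 CPM in the control and from 154 through 132 and 110 to 53.7 CPM in the knockout-labelled library. Its log2 ratios of the highest to the lowest band were −1.55 (−1.68 to −1.43) and −1.53 (−1.64 to −1.41).

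Gpx4 was flatter, between 509 and 638 CPM across the control bands and between 595 and 706 CPM in the knockout-labelled library, in both cases lowest in the highest insulin band. Gstp1 stayed between 25.2 and 30.4 CPM and between 26.4 and 32.6 CPM. Gstm1 stayed between 125 and 138 CPM and between 105 and 107 CPM. Between the highest and the lowest band, 2 of 6 members (Gpx1 and Gpx3) were at least 1.5-fold higher and 1 (Gsto1) lower in each library. In the control 9.79% of 8656 genes were that much higher and 11% lower, and in the knockout-labelled library 9.32% and 4.47% of 8918 genes. The higher calls hold relative to genes other than the hormones: as a share of all UMIs the Gpx3 log2 ratio of the highest to the lowest band was 0.14 in the control and 0.46 in the knockout-labelled library.

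**Figure D4:**
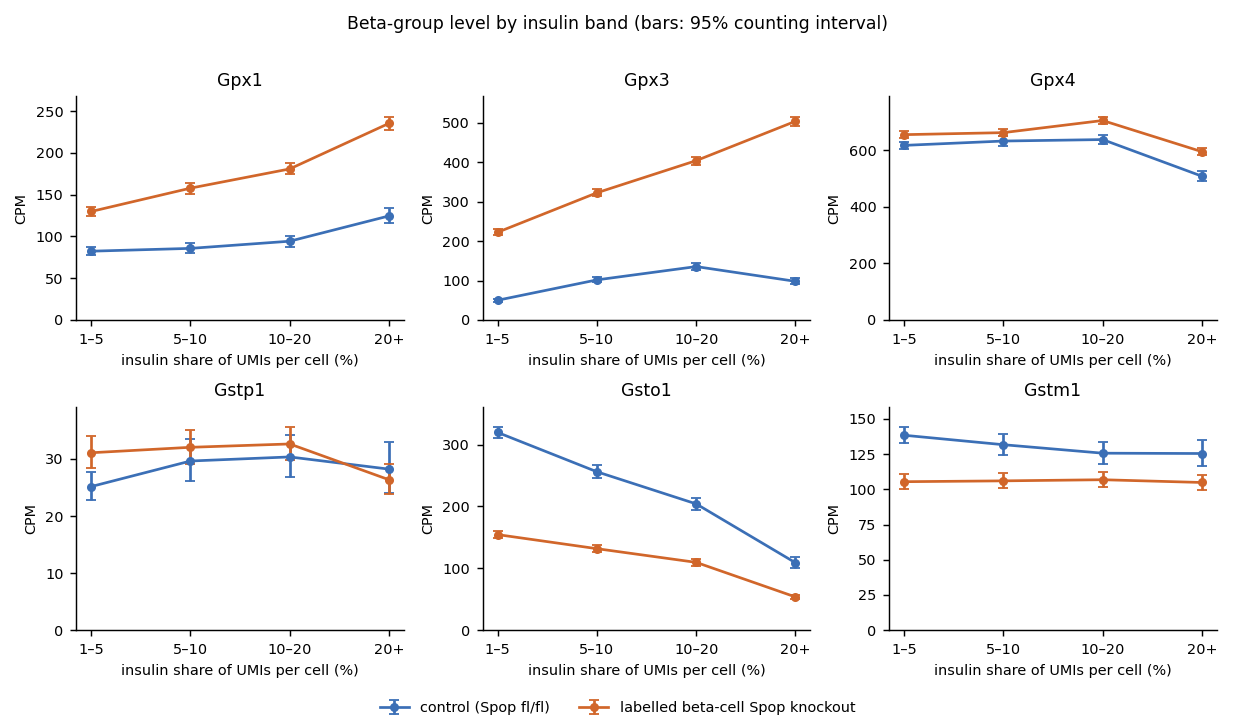
Level in CPM (linear axis from 0) of the 6 measured genes in beta cells by insulin band, for the control library (blue) and the knockout-labelled library (orange), with 95% counting intervals. The Gsto1 level steps down with insulin in both libraries, from 320 to 109 CPM and from 154 to 53.7 CPM, Gpx1 steps up in both, and the libraries stand apart in every band for Gpx1, Gpx3 and Gsto1.

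Within the bands the libraries differed as they did over all beta cells. The log2 ratio of Gpx3 was 2.15, 1.67, 1.58 and 2.36 from the lowest to the highest band, that of Gpx1 was 0.66, 0.88, 0.94 and 0.92, and that of Gsto1 was −1.05, −0.96, −0.90 and −1.02. In each of the 4 bands these 3 members, 2 higher and 1 lower, were past 1.5-fold. Over all genes 3.29%, 6.3%, 9.26% and 15.7% were that much higher in the 4 bands and 1.93%, 4.13%, 5.65% and 11.5% lower.

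The members were also compared within the beta cells of 1 library, on plain CPM from all UMIs outside the hormone genes, without TMM factors. Beta cells of at least 5000 UMIs were classed by their UMIs of 1 member after thinning to 5000 UMIs. Those of the knockout-labelled library with 0, with 1 or 2, and with 3 or more Gpx3 UMIs (1672, 1746 and 1060 cells) had Gpx1 at 161, 198 and 214 CPM and Gsto1 at 135, 124 and 106 CPM. Median insulin shares in the 3 classes were 11.1%, 12.5% and 14.6%. Split by Gsto1 UMIs in the same way (3115, 1222 and 141 cells), Gpx3 was at 424, 345 and 245 CPM and Gpx4 at 666, 788 and 882 CPM, with median insulin shares of 16.1%, 8.14% and 4.84%. Gpx4 also rose in the split by Gpx3, at 666, 717 and 777 CPM. Gpx3 and Gsto1 were thus opposed in this library, while Gpx4 rose with each of them. Insulin moved with both splits of this library, and its part was not tested. In control beta cells split by Gpx3 (2258, 430 and 71 cells), Gsto1 also fell, at 270, 243 and 226 CPM. Gpx4 rose there, at 622, 678 and 860 CPM, and Gpx1 was at 93.1, 105 and 108 CPM. Median insulin shares in these control classes were 9.38%, 9.90% and 9.67%. In control beta cells split by Gsto1, Gpx4 rose as well, at 557, 676 and 773 CPM. Gpx3 was at 94.6, 102 and 53.5 CPM in that split, so it did not fall at each step.

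Over 12 points, which are the 4 insulin bands, alpha cells and PP cells of both libraries, the genes with the pattern most like Gpx1 on log2(CPM + 1) were Smim22 (Pearson r = 0.98), Dap and Cdh1, the epithelial cadherin, each with r = 0.98. For Gpx3 they were Fgl2 (r = 0.96), Dusp26 (0.96) and Gnai1 (0.95), and for Gsto1 Vmp1, an autophagy protein, Rnf11, and Lonp1, the mitochondrial matrix protease, at 0.98, 0.97 and 0.97. For Gpx4 the closest was Hint1 (0.96), for Gstp1 the ribosomal protein gene Rpl23 (0.95) and for Gstm1 Mettl9 (0.94). Among the members the correlation was −0.75 between Gpx1 and Gsto1, −0.68 between Gpx3 and Gsto1 and 0.90 between Gpx4 and Gstp1. These were the best of 6065 genes that averaged 25 CPM or more, and the points share libraries, so the values are descriptions.

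Other genes of glutathione and redox metabolism were counted in 5 lists. The lists overlap, so that their 70 measured entries in beta cells are 64 different genes, of which 5 were at least 1.5-fold higher and 6 lower in the knockout-labelled library. Each count below stands against 7% of all beta genes higher and 3.45% lower, and each median against −0.05 over all beta genes.

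Of 18 measured genes of glutathione synthesis and recycling 0 were at least 1.5-fold higher in beta cells of the knockout-labelled library and 2 lower, with a median log2 ratio of −0.03. The 2 were Slc3a2, the heavy chain of the cystine transporter, at 519 and 302 CPM, and Chac1, which degrades glutathione, at 60.5 and 37.0 CPM. Esd, which hydrolyses S-formylglutathione, and Pgd, an NADPH-forming enzyme of the pentose phosphate pathway, had log2 ratios of −0.53 and −0.50.

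Of 8 measured further glutathione peroxidases and transferases 2 were higher (7% of all beta genes) and 0 lower (3.45%), with a median of 0.41. These were Mgst3, a microsomal transferase, at 12.3 and 23.0 CPM, and Gstt2, of the theta class, at 24.0 and 41.8 CPM. Gstz1 and Gstm5 had log2 ratios of 0.49 and 0.43. In alpha cells Mgst3, Gstm5 and Gstt2 had log2 ratios of 0.54, 0.52 and 0.48.

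Of 15 peroxiredoxins, thioredoxins, superoxide dismutases and catalase 1 was higher (7% of all beta genes) and 3 were lower (3.45%), with a median of −0.10. The higher one was Txnip, an inhibitor of thioredoxin whose transcription follows glucose, at 19.4 CPM in the control and 79.0 CPM in the knockout-labelled library, a log2 ratio of 2.02 (1.91–2.14). In alpha cells Txnip was at 46.9 and 43.1 CPM. The lower ones were Srxn1, which repairs peroxiredoxins, at 136 and 70.2 CPM, Cat, catalase, at 16.7 and 9.02 CPM, and Txn2, mitochondrial thioredoxin, at 188 and 116 CPM.

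Of 14 selenoproteins and genes of selenoprotein synthesis 2 were higher (7% of all beta genes) and 0 lower (3.45%), with a median of 0.06. Selenop, the secreted selenium carrier, was at 81.3 and 176 CPM in beta cells and at 246 and 240 CPM in alpha cells, the same order of groups and libraries as Gpx3. Selenom, of the endoplasmic reticulum, was at 268 and 493 CPM in beta cells. Trnau1ap and Selenof had log2 ratios of −0.22 and 0.19. Of 15 described NRF2 targets 0 were higher and 2 lower, Nqo1, a quinone reductase, at 16.6 and 5.58 CPM, and Srxn1, counted above as well, against 3.45% of all beta genes lower. The median was −0.33, while Hmox1, heme oxygenase, had a log2 ratio of −0.47.

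In alpha cells 0 of the 64 different genes measured in the 5 lists were past 1.5-fold in either direction, where 0.838% of all alpha genes were higher and 0.759% lower. The medians were 0.10 for glutathione synthesis and recycling, 0.33 for the further peroxidases and transferases, 0.18 for the peroxiredoxin list, 0.18 for the selenoprotein list and 0.00 for the NRF2 targets. The median over all alpha genes was −0.00.

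**Figure D5:**
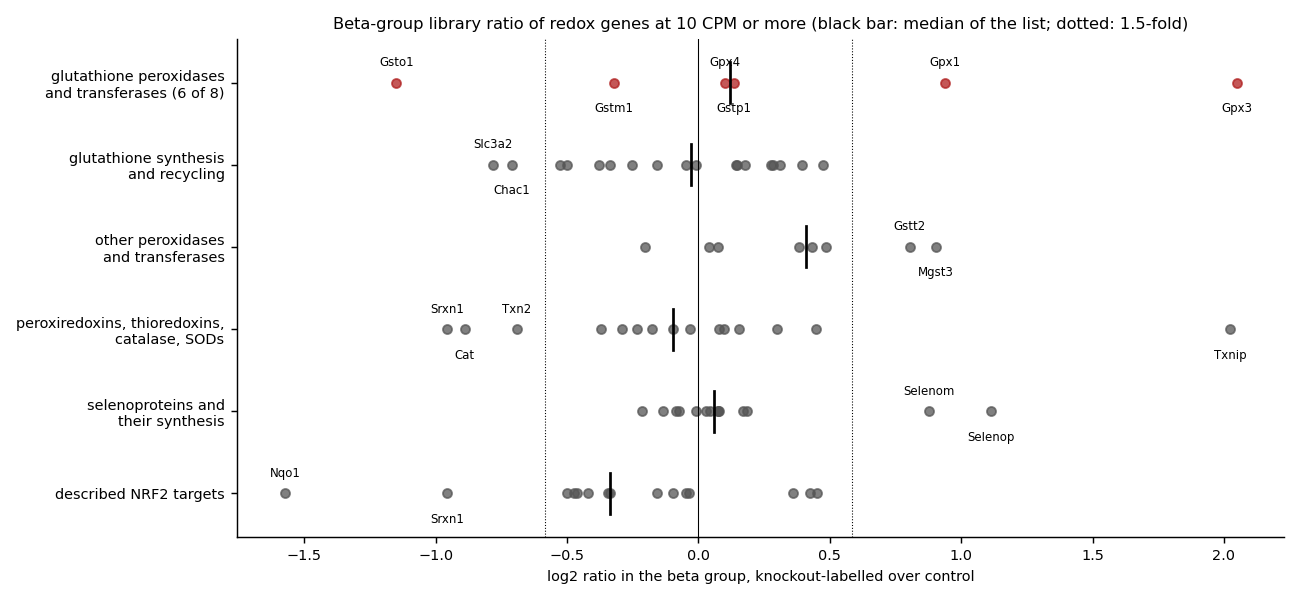
Log2 ratio in beta cells of the knockout-labelled library over the control for redox genes at 10 CPM or more, 1 point per gene and 1 row per list, with black bars at each row's median and dotted lines at 1.5-fold. Genes past 1.5-fold are named; Gpx3 (2.05) and Txnip (2.02) lie farthest to the right and Nqo1 (−1.57) farthest to the left.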

How the data were processed

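Each deposited table holds raw counts of UMIs by gene and barcode, and its header, per the file headers, names Cell Ranger 6.0.0. The build is mm10, and the tools R 4.1.1 and Seurat 4.1.0 are named too, per the submitters' processing notes. A cell needed 500 detected genes and no more than 15% of its UMIs from mitochondrial genes, and doublets were not called. UMIs were summed per hormone group or insulin band, hormone groups and bands under 50 cells were not compared, and TMM factors were computed without the 7 hormone genes. Levels have exact Poisson, ratios exact conditional and shares exact Clopper-Pearson intervals at 95%. PCR duplicates are removed by the UMIs, and the intervals cover counting error only. On simulated data of 8706 genes with 200 changed 2-fold in beta cells, the intervals held the true value in 95.0% of genes. The simulated counts were Poisson, as the intervals assume, without spread between cells or libraries. This checks the calculation only and does not show that the intervals cover the spread of the real data.

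The members and the lists were chosen with earlier results of these data known. Named genes are the 8 members, up to 4 measured genes of each list with the largest beta ratio whose interval excludes no difference, and the 3 genes most like each member. Cells outside the hormone groups with at least 4 markers seen and 10 UMIs of a list were called mesenchymal, endothelial or macrophage, a rule set after the data were seen, and these small sets of cells are given as levels only. Positions are from GENCODE mouse release 21 (8 of 8 matched) and promoters from RefSeq on GRCm38.p6 (8 of 8). The work ran in Python 3.11.15 with pandas 2.3.3, scipy 1.17.1, matplotlib 3.10.9 and numpy 2.4.6.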

Additional observations from a re-analysis of the deposited data

How the results depend on the processing

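Of 675 single-gene values under 15 planned and 7 added alternatives, 440 moved by less than their counting interval and the rest by more. Of all values 48 had the opposite sign to the reported one, 47 of them for ratios reported under 1.5-fold or 10 CPM, such as Gpx4 between libraries in beta cells (0.10 to −0.14 within 3 to 15% mitochondrial UMIs) and the Gstp1 band ratio in the control (0.17 to −1.49 there). The 1 ratio past 1.5-fold that turned is the Gpx1 log2 ratio of the highest to the lowest insulin band in the control, which was −0.23 with CPM over all genes and no TMM factors. The beta log2 ratio ranged from 1.58 to 3.24 for Gpx3, from 0.66 to 1.05 for Gpx1 and from −1.55 to −0.59 for Gsto1, that of Gstp1 in alpha cells from 0.52 to 1.20, and that of Gsto1 in PP cells from −1.04 to −0.57.

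Counts past 1.5-fold moved as follows. With CPM over all genes the band count was 0 higher and 4 lower in each library, in place of 2 and 1. In the control bands 1 was higher with 4 bands of equal size, with the next hormone at most 2% of the top, within 1 to 3% and 3 to 15% mitochondrial UMIs and within 5000 to 10000 and 10000 to 20000 UMIs, and 3 were lower in each library within 3 to 15% mitochondrial UMIs. In alpha cells between libraries 0 were higher and 1 lower under 1% mitochondrial UMIs, 1 was lower within 1 to 3% and 0 were higher within 3 to 15%. In PP cells 0 were lower with the hormone gate at 3%. For alpha over beta in the control 2 were lower with the next hormone at most 2%, and 2 were higher and 0 lower under 1% mitochondrial UMIs. With a minimum of 1 CPM, 8 other redox genes in place of 5 were higher and 9 in place of 6 lower in beta cells, and 2 were higher and 3 lower in alpha cells in place of 0. The cause of these shifts was not tested. Settings that left a group under 50 cells gave no value, such as alpha cells of the knockout-labelled library with the next hormone at most 2%, where 1 cell was left. No paired analysis was possible because each genotype has 1 library. Without replicates, neither mouse-to-mouse spread nor library effects can be told apart from the genotype.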
